A study of Homo sapiens with 24 samples.

Results

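The genes described here are 43 soluble lysosomal enzymes and their activators, followed in SW872 cells that expressed YAP/TAZ fusion proteins or their parent proteins. They comprise 15 proteases, 11 glycosidases, 5 sulfatases, 8 lipid enzymes and activators and 4 other hydrolases, and the list was drawn up by function, with earlier results of these data known. Each gene was looked up by its Ensembl identifier in the count table of every library. All 43 were found among the 60279 genes listed, and all 43 were among the 19997 genes that passed the count minimum, set at an average of 5 counts per library.

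SW872 is an established human liposarcoma cell line. Pools of cells were stably transduced with a retroviral vector and selected, so each line was a pool that was not cloned, and the 3 libraries of a group came from separate transductions. The 8 groups of 3 libraries carried the empty vector (EV), the fusion proteins YAP-TFE3 or TAZ-CAMTA1, the hyperactive full-length proteins YAP5SA or TAZ4SA, full-length TFE3, full-length CAMTA1, or the empty vector in sub-confluent culture (EVsub). EV, TFE3, YAP-TFE3, YAP5SA, TAZ-CAMTA1 and TAZ4SA cells were collected 48 h after reaching confluence, whereas CAMTA1 and EVsub cells were sub-confluent, so CAMTA1 was compared with EVsub only. All cells carried the vector and its selection gene, the constructs were expressed from the viral vector and not from the native loci, and the cells kept their own YAP1, WWTR1 (the TAZ gene), TFE3 and CAMTA1 genes.

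Lysosomal hydrolases are made in the endoplasmic reticulum, tagged with mannose phosphate in the Golgi and carried to the lysosome, where they cut proteins, glycans, lipids and nucleic acids at acid pH. Proteases such as the cathepsins digest proteins, glycosidases and sulfatases take apart the sugar chains of glycoproteins and glycosaminoglycans in turn, and lipid enzymes digest sphingolipids and esters with the help of small activator proteins. Genes of this kind often share an E-box element, and TFE3, TFEB and MITF, transcription factors of the MiT/TFE family, are known to bind it through the domain that YAP-TFE3 retains from TFE3.

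Libraries held 19700277 to 35287476 counts, and a member held 23 to 80111 counts in a library, so none of the 43 was near the limit of detection. Levels are given in CPM, counts scaled to the TMM-adjusted library size, as mean ± SD over 3 libraries, and a gene was called changed at an adjusted p under 0.05 in edgeR. TFE3 RNA stood at 119 ± 10.1 CPM in EV, 336 ± 19.3 in TFE3 and 283 ± 49.6 in YAP-TFE3. WWTR1 went against the TAZ4SA label: it was at 204 ± 20.3 CPM in EV and 134 ± 0.538 in the libraries labelled TAZ4SA. WWTR1 was also called lower than in EV in YAP5SA (log2 fold change -1.57) and YAP-TFE3 (-0.70), whose constructs hold no TAZ part. In TAZ-CAMTA1, whose construct carries part of TAZ, WWTR1 was at 181 ± 2.15 CPM, not above EV either (log2 fold change -0.17, SE 0.08, adjusted p = 0.236). YAP1 was at 128 ± 12.5 CPM in EV and 253 ± 4.99 in YAP5SA, and CAMTA1 at 21.4 ± 2.05 in EV, 144 ± 7.14 in TAZ-CAMTA1, 22.9 ± 1.23 in EVsub and 124 ± 8.09 in CAMTA1. Mesenchymal markers were present in every library, with VIM between 464 and 1154 CPM. Of the adipocyte markers, ADIPOQ was at 0 in all 24 libraries, FABP4 was at 0 in 20 and LPL was at 30.6 to 268 CPM. Of the 43 members, 16 overlapped no other gene in GENCODE 44, 12 overlapped a gene on the same strand and 15 overlapped a gene on the opposite strand only. The libraries were stranded, but the strand setting behind the deposited counts was not given in the sources used here, so values of overlapping genes are less certain.

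RefSeq promoter windows (GRCh38.p14, 250 bases before to 50 after the start) matched 31 members by symbol. ARSA, ASAH1, CTSB, CTSK, CTSO, CTSS, HEXA, LGMN, MANBA, NAGLU, PSAP and SGSH were not matched. The E-box CACGTG, searched on both strands, was present in the windows of 7 of the 31 matched members (22.6%) and in 7.43% of all 27305 windows. These 7 were CTSA, CTSD, CTSF, SCPEP1, GAA, NEU1 and GALNS. The longer TCACGTGA, which contains CACGTG, was present in 4 members (12.9%) against 1.04% of all windows, and TCACGTGA with a further G before it and C after it in 2 members (6.45%, GAA and GALNS) against 0.381%. TCATGTGA, which shares no site with these motifs, was present in PPT1, TPP1 and GALC (9.68%) against 1.01%. The 30 bases around each CACGTG are shown because this is the element that MiT/TFE factors are known to bind. Each is written 5′ to 3′ on the strand of its gene, capitals mark the CACGTG, and positions count from the RefSeq start.
CTSA, chr20:45891281-45891310, plus strand, site from position -42: gaggaagactgtCACGTGgcgccggagttc
CTSA, chr20:45891298-45891327, plus strand, site from position -25: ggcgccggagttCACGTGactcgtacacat
CTSD, chr11:1763957-1763986, minus strand, site from position -47: gccggccgcgccCACGTGaccggtccgggt
CTSF, chr11:66568712-66568741, minus strand, site from position -123: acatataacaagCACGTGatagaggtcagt
CTSF, chr11:66568640-66568669, minus strand, site from position -51: ccctgcgcgcccCACGTGcctcctgtaaac
SCPEP1, chr17:56978092-56978121, plus strand, site from position -27: gtccgcctccgtCACGTGatggggcgccgg
GAA, chr17:80101493-80101522, plus strand, site from position -76: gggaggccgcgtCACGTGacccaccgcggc
GAA, chr17:80101538-80101567, plus strand, site from position -31: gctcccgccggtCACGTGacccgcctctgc
NEU1, chr6:31862930-31862959, minus strand, site from position -126: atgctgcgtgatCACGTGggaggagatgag
GALNS, chr16:88857104-88857133, minus strand, site from position -174: caggcaccgcgtCACGTGacccgccgctgg
GALNS, chr16:88856962-88856991, minus strand, site from position -32: cgccccgcgagtCACGTGgccgtccaggcc

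In addition, whole windows are shown for the member of each class with the largest called rise in YAP-TFE3 among those with a matched window. All 5 genes are on the minus strand. Capitals mark the CACGTG of NEU1 and the TCATGTGA of GALC, and the windows of CPVL, ARSB and ACP5 hold none of the motifs searched.
CPVL, chr7:29195218-29195517: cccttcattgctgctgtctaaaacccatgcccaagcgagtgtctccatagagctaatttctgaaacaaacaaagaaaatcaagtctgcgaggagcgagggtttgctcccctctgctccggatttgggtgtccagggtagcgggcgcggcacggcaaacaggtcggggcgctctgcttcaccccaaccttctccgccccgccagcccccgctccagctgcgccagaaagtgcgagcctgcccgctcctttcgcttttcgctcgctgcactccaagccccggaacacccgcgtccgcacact
NEU1, chr6:31862772-31863071: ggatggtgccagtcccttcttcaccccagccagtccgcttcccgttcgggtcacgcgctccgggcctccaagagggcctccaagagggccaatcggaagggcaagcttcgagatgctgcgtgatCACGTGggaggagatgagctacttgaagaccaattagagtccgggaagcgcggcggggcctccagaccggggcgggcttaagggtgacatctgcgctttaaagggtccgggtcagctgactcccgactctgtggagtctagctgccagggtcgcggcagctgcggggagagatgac
ARSB, chr5:78985261-78985560: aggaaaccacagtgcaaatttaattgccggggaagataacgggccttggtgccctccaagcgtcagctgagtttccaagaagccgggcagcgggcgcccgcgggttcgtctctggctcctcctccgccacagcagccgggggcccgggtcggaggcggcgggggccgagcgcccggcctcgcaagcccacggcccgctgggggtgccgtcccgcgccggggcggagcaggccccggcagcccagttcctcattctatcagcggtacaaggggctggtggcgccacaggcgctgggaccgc
GALC, chr14:87993133-87993432: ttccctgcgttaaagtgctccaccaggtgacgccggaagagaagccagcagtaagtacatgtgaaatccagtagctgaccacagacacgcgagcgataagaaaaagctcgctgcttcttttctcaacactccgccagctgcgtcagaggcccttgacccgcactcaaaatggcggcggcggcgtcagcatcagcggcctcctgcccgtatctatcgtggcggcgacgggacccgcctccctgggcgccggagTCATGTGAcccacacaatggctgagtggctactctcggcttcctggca
ACP5, chr19:11578926-11579225: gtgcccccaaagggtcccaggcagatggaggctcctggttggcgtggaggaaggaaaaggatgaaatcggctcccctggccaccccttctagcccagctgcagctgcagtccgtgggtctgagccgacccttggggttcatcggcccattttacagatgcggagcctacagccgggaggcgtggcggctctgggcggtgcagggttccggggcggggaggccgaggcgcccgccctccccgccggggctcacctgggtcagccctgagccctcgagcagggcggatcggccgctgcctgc

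In YAP-TFE3 cells most members were more abundant than in EV cells. Of 43 members, 30 were called higher and 0 lower, while 25.6% of all genes tested were called higher and 22.6% lower (48.2% in either direction). The median log2 fold change was 0.70 over the members and -0.01 over all genes tested, and 12 members (27.9%) rose at least 2-fold, beside 10.5% of all genes tested. In 36 members (83.7%) the group mean was highest in YAP-TFE3, beside 22.1% of all genes tested. In 23 (53.5%) every YAP-TFE3 library lay above all 21 other libraries, beside 9.02%. The 13 members not called were the proteases CTSF, CTSK and CTSO, the glycosidases GUSB, IDUA and MAN2B1, the sulfatases ARSA, GALNS and IDS, the lipid enzymes and activators SMPD1, GM2A and PLA2G15, and ACP2. Because RNA came from whole cultures, a larger share of cells with the RNA and more RNA per cell cannot be told apart.

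**Figure D1:**
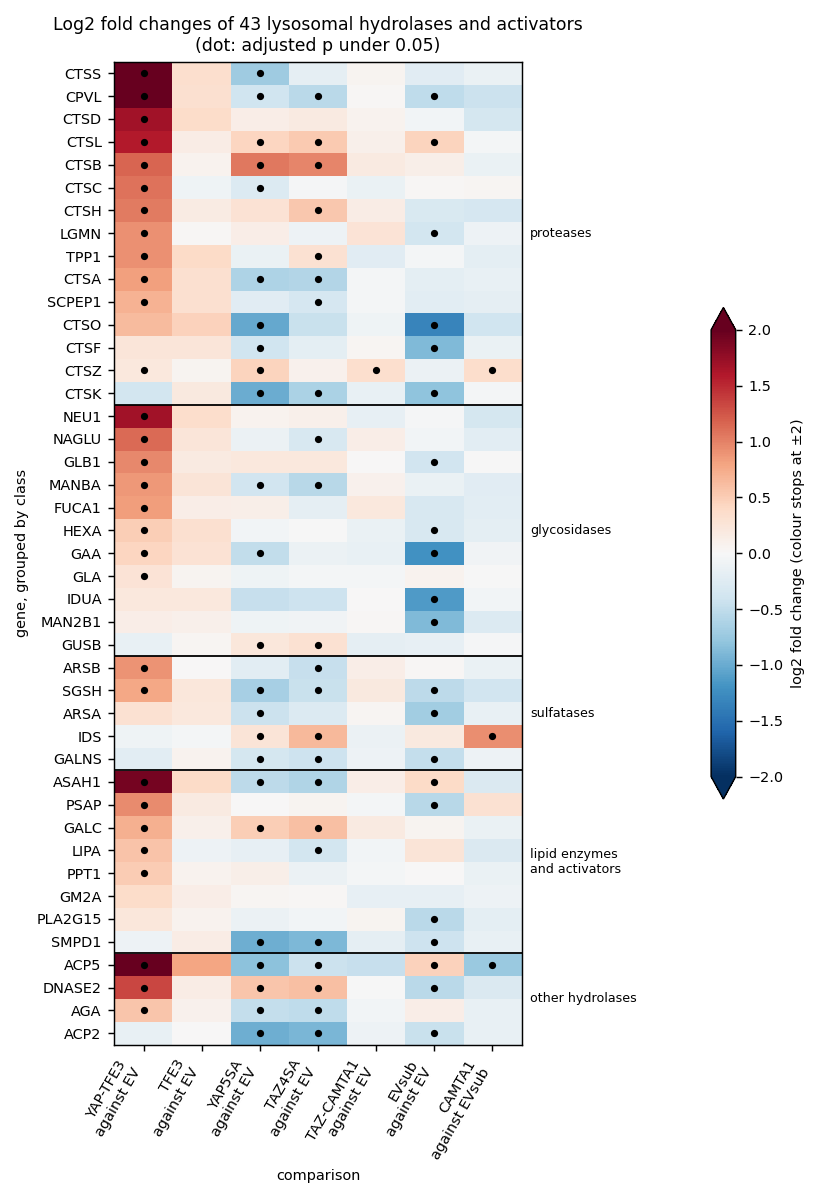
Log2 fold changes of the 43 members (a line per gene, grouped by class) in 7 comparisons with a control (columns), with colour from blue (lower) to red (higher) that stops at 2 in either direction and a dot where the adjusted p was under 0.05. The YAP-TFE3 column holds 30 dots, all on red, the YAP5SA column holds 24 on both colours, and the TFE3 column holds none.

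Read by class, the proteases had 12 of 15 members called higher (median 0.92), the glycosidases 8 of 11 (median 0.50), the sulfatases 2 of 5 (median 0.31), the lipid enzymes and activators 5 of 8 (median 0.54) and the other hydrolases 3 of 4 (median 0.95). The difference between classes was not tested, and the class ranges overlapped: proteases ran from -0.37 to 2.78 and sulfatases from -0.22 to 0.91 on the log2 scale.

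Among the proteases, CTSS had the largest rise. CTSS encodes cathepsin S, a cysteine protease best known for trimming the invariant chain in antigen-presenting cells, and lies at chr1:150730079-150765957 (GRCh38, minus strand). It stood at 11.6, 11.7 and 12.6 CPM in the 3 EV libraries and 77.5, 79.0 and 90.5 CPM in the 3 YAP-TFE3 libraries, a 6.88-fold rise (log2 fold change 2.78, SE 0.15, adjusted p = 2.04e-13). No YAP-TFE3 library came near any library of another group, where the highest CTSS value was 18.1 CPM in a TFE3 library.

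CPVL, a serine carboxypeptidase at chr7:28995235-29195451 that overlaps CHN2 on the opposite strand, stood at 59.4, 69.4 and 72.9 CPM in EV and 244, 260.3 and 362 in YAP-TFE3 (4.30-fold, log2 fold change 2.10, SE 0.15, adjusted p = 3.11e-11). The groups did not overlap, although the third YAP-TFE3 library was well above the other two. The aspartic protease CTSD and the cysteine protease CTSL rose to a like extent (log2 fold changes 1.67 and 1.59). CTSD went from 122 ± 17.6 to 388 ± 47.2 CPM and CTSL from between 127 and 133 CPM to between 389 and 402 CPM. CTSB, the cathepsin with the highest CPM, went from 946 ± 74.9 to 2122 ± 229 CPM (log2 fold change 1.17).

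The remaining proteases rose less. CTSC, a dipeptidyl peptidase that activates granule proteases, CTSH, LGMN, an asparaginyl endopeptidase that matures cathepsins, TPP1, CTSA and SCPEP1 had log2 fold changes from 0.70 to 1.08, and CTSZ 0.22, with libraries that overlapped. CTSK, the collagen-degrading cathepsin of osteoclasts, and CTSO were at the bottom of the range of levels. CTSK stood at 5.18, 4.23 and 5.04 CPM in EV and 2.47, 2.86 and 5.76 in YAP-TFE3, and CTSO at 3.80, 4.19 and 4.99 CPM in EV and 4.72, 4.65 and 10.5 in YAP-TFE3. In both genes the third YAP-TFE3 library stood apart from the other two, and neither difference was called (adjusted p = 0.206 for CTSK and 0.0878 for CTSO).

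**Figure D2:**
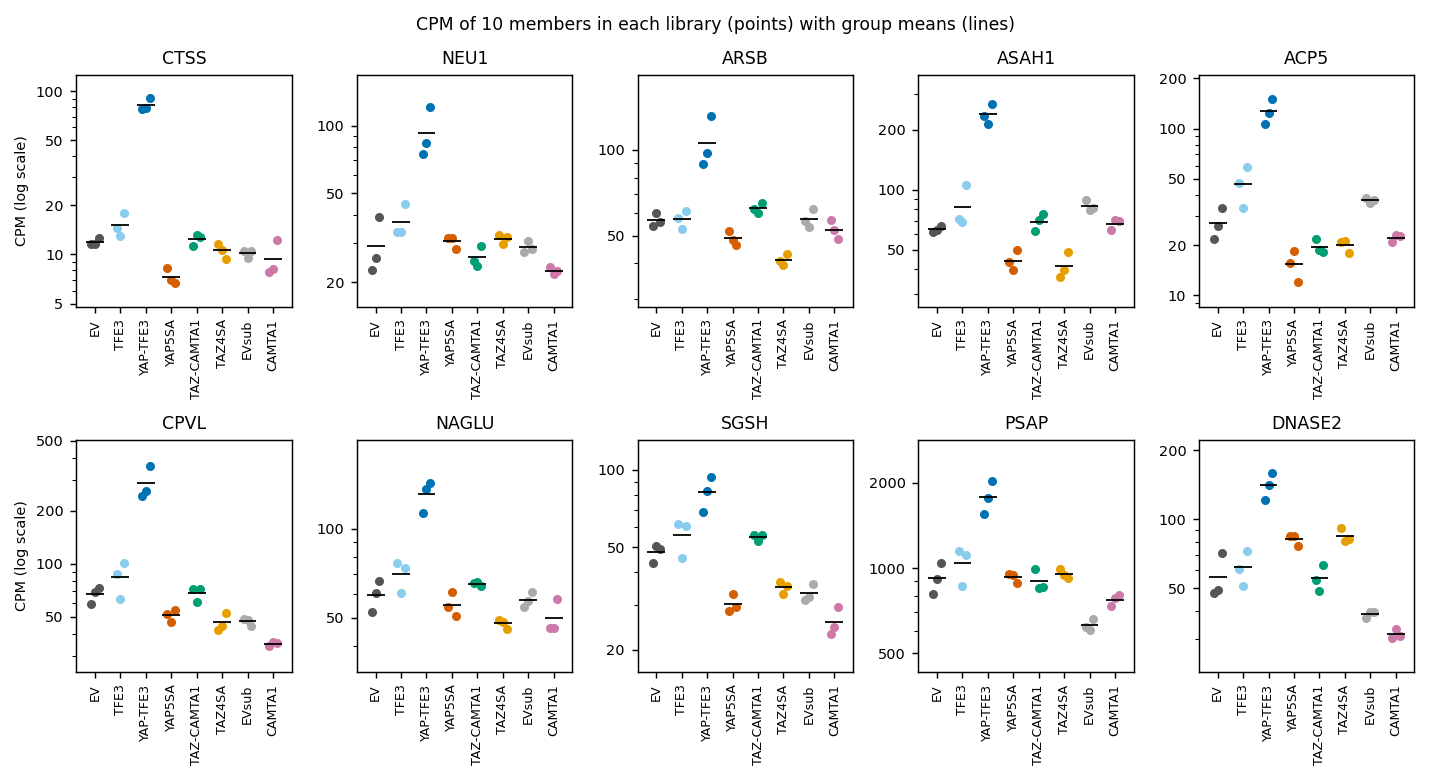
CPM on a log axis of the 2 members with the largest called rise in YAP-TFE3 against EV from each class, in 8 groups on the x axis, with a point per library and a line at the group mean. The YAP-TFE3 points lie above all EV points in the 10 panels, and ASAH1 and ACP5 are lower in YAP5SA than in EV.

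Of the glycosidases, NEU1 rose most. It encodes the sialidase that removes terminal sialic acid and works in a complex with CTSA and GLB1, and it lies at chr6:31857659-31862905 with no overlapping gene. NEU1 stood at 22.8, 25.6 and 39.2 CPM in EV and 74.4, 83.8 and 121 in YAP-TFE3 (3.20-fold, log2 fold change 1.68, SE 0.17, adjusted p = 1.54e-08). The third library was the highest in both groups, and the groups did not overlap. NAGLU, which trims heparan sulfate and lies at chr17:42536241-42544449, stood at 52.2, 60.4 and 66.3 CPM in EV and 113, 137 and 143 in YAP-TFE3 (2.20-fold, log2 fold change 1.14, SE 0.11, adjusted p = 8.95e-09).

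The galactosidase GLB1 (log2 fold change 0.95), the mannosidase MANBA (0.87), the fucosidase FUCA1 (0.84), the hexosaminidase subunit HEXA (0.50), the glycogen-degrading GAA (0.42) and the galactosidase GLA (0.28) were also called higher, GAA with libraries that overlapped. GUSB had a log2 fold change of -0.14, IDUA 0.22 and MAN2B1 0.14, none of them called.

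Sulfatases split. ARSB, which removes sulfate from dermatan and chondroitin chains and lies at chr5:78777209-78986087, stood at 53.9, 60.1 and 56.0 CPM in EV and 89.6, 97.4 and 131 in YAP-TFE3 (1.87-fold, log2 fold change 0.91, SE 0.11, adjusted p = 1.96e-07). SGSH, a heparan sulfate sulfatase at chr17:80206716-80220923 that overlaps CARD14 and SLC26A11 on the opposite strand, stood at 43.5, 50.8 and 49.5 CPM in EV and 68.8, 82.8 and 93.4 in YAP-TFE3 (1.71-fold, log2 fold change 0.77, SE 0.12, adjusted p = 8.41e-06). In both genes every YAP-TFE3 library lay above every EV library. The sulfatide-degrading ARSA had a log2 fold change of 0.31 (adjusted p = 0.0588), IDS of -0.08 and GALNS of -0.22, and these were not called.

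Among the lipid enzymes, the acid ceramidase gene ASAH1 stood at 61.4, 62.8 and 65.9 CPM in EV and 234, 215 and 269 in YAP-TFE3 (3.78-fold, log2 fold change 1.92, SE 0.14, adjusted p = 4.39e-11). PSAP, which encodes the precursor of the saposin activators and lies at chr10:71816298-71851251, stood at 809.9, 914 and 1040 CPM in EV and 1550, 1763 and 2021 in YAP-TFE3 (1.93-fold, log2 fold change 0.95, SE 0.11, adjusted p = 1.31e-07). The YAP-TFE3 libraries were above the EV libraries in both genes. The galactosylceramidase GALC (0.70), the acid lipase LIPA (0.57) and the palmitoyl thioesterase PPT1 (0.51) rose less on the log2 scale. The ganglioside activator GM2A (0.37), the phospholipase PLA2G15 (0.22) and SMPD1, the acid sphingomyelinase (-0.10), were not called. SMPD1, which makes the ceramide that ASAH1 cleaves, stood at 94.1 ± 18.9 CPM in EV and 87.7 ± 20.5 in YAP-TFE3.

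Of the other hydrolases, ACP5, the tartrate-resistant acid phosphatase of osteoclasts and macrophages at chr19:11574653-11579993, stood at 21.8, 26.1 and 33.5 CPM in EV and 107, 124 and 151 in YAP-TFE3 (4.70-fold, log2 fold change 2.23, SE 0.18, adjusted p = 2.83e-10). DNASE2, the acid DNase at chr19:12875209-12881595, stood at 47.6, 49.2 and 71.0 CPM in EV and 122, 142 and 159 in YAP-TFE3 (2.52-fold, log2 fold change 1.33, SE 0.14, adjusted p = 2.02e-08), and the groups did not overlap in either gene. AGA, which cleaves the bond between asparagine and its sugar, rose by 0.56 on the log2 scale. ACP2, the lysosomal acid phosphatase, did not pass the test at -0.15.

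CTSS, CTSK and ACP5 are known for high levels in macrophages and osteoclasts, so markers of those cells were measured in the same libraries. PTPRC was at 0 in 18 of 24 libraries and never above 1 count, TYROBP was at 0 in 17 and never above 2 counts, and CALCR was at 0 in 20. CSF1R and CD14 were present at a low level in every library, at 0.656 to 1.87 and 0.656 to 1.38 CPM. LYZ, MRC1 and DCSTAMP were at 0 in 1 library each, with at most 21, 13 and 30 counts. The summed level of the 12 markers was 2.35 to 3.44 CPM in EV and 7.20 to 9.61 in YAP-TFE3. OSCAR, an osteoclast-associated receptor, stood at 0.404 ± 0.0597 CPM in EV, 4.50 ± 1.15 in YAP-TFE3 and 10.6 ± 2.56 in the libraries labelled TAZ4SA. Of the adipocyte markers, FABP4 had 23, 21 and 17 counts in the YAP-TFE3 libraries and at most 1 in any other library, and LPL went from 139.7 ± 33.2 to 257 ± 15.2 CPM. The summed adipocyte markers were at 105 to 171 CPM in EV and 240.5 to 269 in YAP-TFE3, the epithelial markers at 198 to 215 and 243 to 352, the endothelial markers at 109 to 148 and 76.8 to 87.7, and the mesenchymal markers at 4832 to 5730 and 4169 to 5649. Of these 4 sums, only the mesenchymal one overlapped between the groups. Of its 7 markers, 4 were called lower and 1 higher in YAP-TFE3 against EV (median log2 fold change -0.54), beside 22.6% and 25.6% of all genes tested. The part of these markers in the members' values was not tested.

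Members with a CACGTG in their window were called higher in YAP-TFE3 in 5 of 7 cases, with a median log2 fold change of 0.70, and those without it in 16 of 24, with a median of 0.56. NEU1 and CTSD, with 1 site each, were among the larger rises. CTSF and GALNS, with 2 sites each, were not called, while CTSA, also with 2 sites, was called higher. Each of the 3 members with TCATGTGA was called higher, PPT1, TPP1 and GALC, at 0.51, 0.92 and 0.70. GAA, whose window holds CACGTG at 2 places, rose by 0.42.

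Between genes, levels were compared as CPM per kb of merged exon length. In EV the order was led by PSAP (296 ± 37.0 CPM per kb), CTSB (89.8 ± 7.11), PPT1 (77.3 ± 4.94), TPP1 (38.9 ± 6.77) and CTSF (35.6 ± 3.47). TPP1 and CTSF differed by less than their SD. With the length of the Ensembl canonical transcript, an alternative added after seeing the data, PSAP and CTSB still led at 335 and 253, followed by CTSZ at 223, which stood at 17.2 with the merged length. The 3 lowest members in EV, CTSS, CTSK and CTSO, were the same with either length. In YAP-TFE3, CTSS rose from 1.74 ± 0.0803 to 11.9 ± 1.03 CPM per kb of merged exon length, from place 41 to place 30 among the 43 members (to place 33 with the canonical length).

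Full-length TFE3 gave no called member. Against EV, 0 of 43 members were called in edgeR, as were 0.035% of all genes tested (7 genes). At an unadjusted p under 0.05 there were 13 members, all with a higher level in TFE3, and 757 genes of 19997, and DESeq2 called 1 member, ACP5. The log2 fold change was positive in 40 of 43 members, with a median of 0.16 beside 0.00 over all genes tested. By class the medians were 0.24 for proteases, 0.21 for glycosidases, 0.07 for sulfatases, 0.12 for lipid enzymes and activators and 0.11 for other hydrolases.

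ACP5 had the smallest p of the members in this comparison. It stood at 47.1, 33.5 and 58.9 CPM in the TFE3 libraries against 21.8, 26.1 and 33.5 in EV (log2 fold change 0.78, SE 0.17, adjusted p = 0.253), and the groups did not overlap, although the lowest TFE3 value and the highest EV value were equal at this rounding. Leaving out the second TFE3 library, the lowest of the 3, let ACP5 pass the test as the only called member. ASAH1 stood at 71.7, 69.4 and 106 CPM in TFE3, where the third library was apart from the other two, and CTSS at 14.4, 13.0 and 18.1 CPM.

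**Figure D3:**
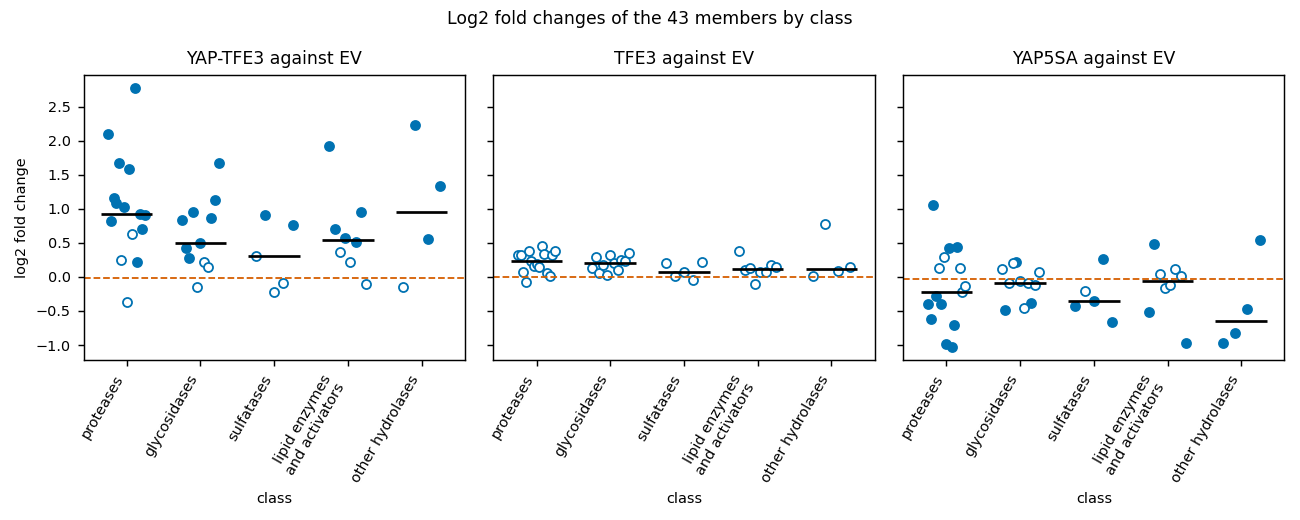
Log2 fold change (y axis) of each member by class (x axis) in YAP-TFE3, TFE3 and YAP5SA, each against EV. Filled points passed an adjusted p of 0.05 and open points did not, black lines are class medians and the dashed line is the median of all genes tested, and the panels hold 30, 0 and 24 filled points.

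Set directly against TFE3, YAP-TFE3 had 27 of 43 members higher and 2 lower, beside 25.4% and 22.5% of all genes tested (48% in either direction), and a median of 0.54 beside -0.02. The proteases had 11 members called higher, the glycosidases 6, the sulfatases 2, the lipid enzymes and activators 5 and the other hydrolases 3. CTSS differed most (log2 fold change 2.44, SE 0.14, adjusted p = 1.32e-12), followed by CPVL (1.78), ASAH1 (1.54), ACP5 (1.45) and CTSL (1.44). The largest differences among glycosidases and sulfatases were those of NEU1 (1.32), NAGLU (0.90), ARSB (0.89) and SGSH (0.55), and DNASE2 (1.19) and PSAP (0.77) were called as well. HEXA, GAA and CTSZ, which were called higher against EV, were not called against TFE3 (0.18, 0.13 and 0.16). The 2 lower members were CTSK (-0.57, adjusted p = 0.0477) and GALNS (-0.28, adjusted p = 0.0264), and neither was called when only these 2 groups were fitted (adjusted p = 0.142 and 0.106) or in 5 and 3 of the 6 fits that left out 1 library.

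YAP5SA has no TFE3 part, but TFE3 RNA was called higher there than in EV (log2 fold change 0.64). The members moved in both directions. Against EV, 7 were called higher and 17 lower, beside 22.7% and 21.6% of all genes tested (44.3% in either direction), with a median of -0.13 beside -0.04. Scaling by total counts in place of TMM moved the median of all genes by -0.185 (log2) here, and the members then split 5 higher and 25 lower. The proteases had 3 members higher and 7 lower, the glycosidases 1 and 2, the sulfatases 1 and 3, the lipid enzymes and activators 1 and 2, and the other hydrolases 1 and 3.

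The members higher in YAP5SA were led by CTSB. CTSB stood at 870.4, 947 and 1020 CPM in EV and 2136, 2125 and 1654 in YAP5SA (2.08-fold, log2 fold change 1.06, SE 0.12, adjusted p = 7.28e-08). The YAP5SA libraries were all above the EV libraries. CTSL (0.43), CTSZ, a carboxypeptidase (0.45), GALC (0.49) and DNASE2 (0.55) were also higher. GUSB (0.23) and IDS, a sulfatase of heparan and dermatan sulfate (0.26), were called but lost the call with total-count scaling, GUSB also in 2 and IDS in all 6 of the fits that left out 1 library.

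Those lower in YAP5SA included ACP2, at 92.9, 99.3 and 117 CPM in EV and 51.9, 54.8 and 50.5 in YAP5SA (log2 fold change -0.98, SE 0.11, adjusted p = 6.72e-08), and SMPD1, at 78.8, 88.4 and 115 CPM in EV and 44.7, 49.5 and 49.4 in YAP5SA (log2 fold change -0.97, SE 0.15, adjusted p = 1.14e-05). In both genes each YAP5SA library was below each EV library. CTSO (-1.03), CTSK (-0.99), ACP5 (-0.82), CTSS (-0.71), SGSH (-0.67), CTSA (-0.62), ASAH1 (-0.52), GAA (-0.48), ARSA (-0.43) and MANBA (-0.39) were lower as well. The calls of CTSO and GAA were lost without the third EV or either of the first and second YAP5SA libraries, and that of ARSA without the third EV or the first YAP5SA library. The epithelial keratin KRT8 stood at 47.3 ± 5.03 CPM in EV and 2157 ± 284 in YAP5SA, the summed epithelial markers at 198 to 215 and 3013 to 4024 CPM, and the part of this shift in the members' values was not tested.

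The direct comparison of YAP-TFE3 with YAP5SA gave 34 members higher and 3 lower, beside 28.1% and 24.3% of all genes tested (52.4% in either direction), with a median of 0.78 beside 0.05. Proteases had 13 of 15 members higher, glycosidases 9 of 11, sulfatases 3 of 5, lipid enzymes and activators 5 of 8 and other hydrolases 4 of 4. CTSS was 11.3-fold higher (log2 fold change 3.50, SE 0.15, adjusted p = 8.25e-15), ACP5 8.29-fold (3.05), CPVL 5.65-fold (2.50) and ASAH1 5.41-fold (2.43). In the other classes NEU1 (1.61), MANBA (1.26), SGSH (1.44), ARSB (1.12), PSAP (0.94) and AGA (1.04) had the largest or next largest differences. CTSB was not called, at 1870, 2178 and 2317 CPM in YAP-TFE3 and 2136, 2125 and 1654 in YAP5SA, which differed by less than the spread between libraries (log2 fold change 0.11, SE 0.12, adjusted p = 0.465). The 3 lower members were GUSB (-0.37), IDS (-0.34) and CTSZ (-0.23), of which IDS and CTSZ lost the call with total-count scaling, CTSZ also in 4 of the 6 fits that left out 1 library.

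**Figure D4:**
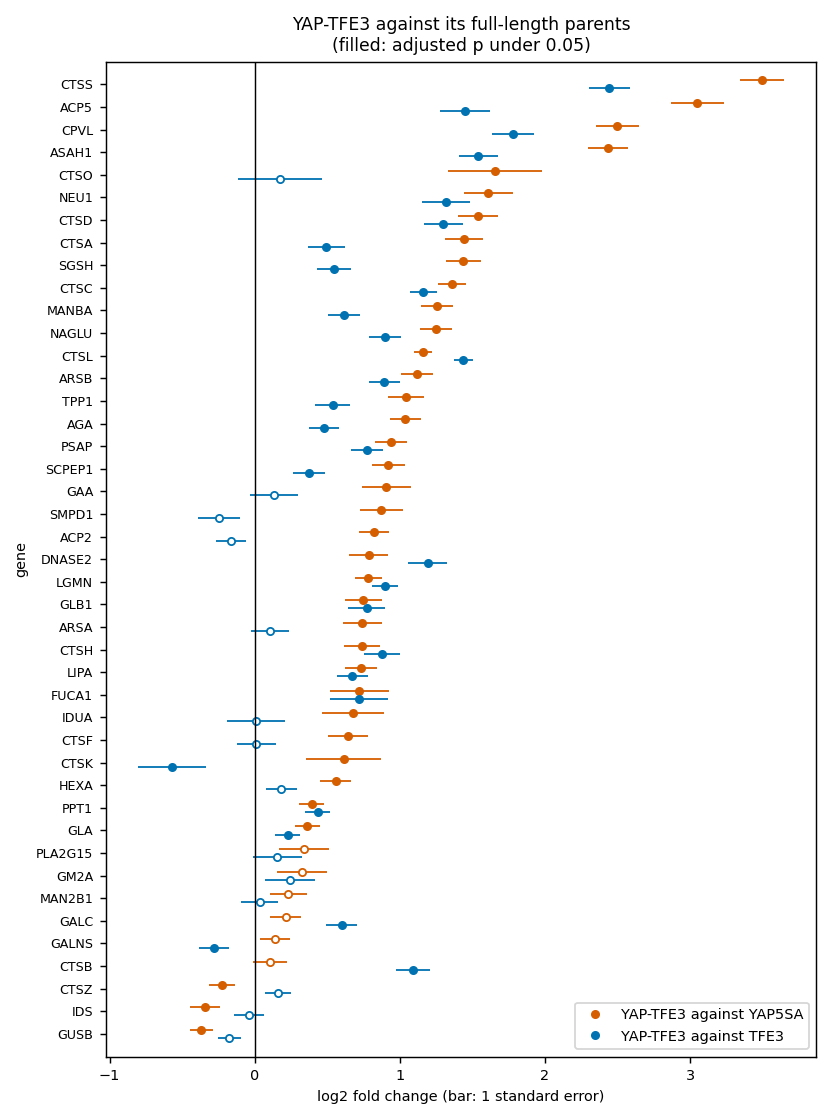
Log2 fold changes of the members in direct comparisons of YAP-TFE3 with TFE3 and with YAP5SA, with bars for the standard error and filled points where the adjusted p was under 0.05. CTSS, ACP5, CPVL and ASAH1 lie farthest to the right in the comparison with YAP5SA, and CTSB is near 0 there.

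In TAZ-CAMTA1 cells, 1 of 43 members was called against EV, CTSZ, higher, beside 3.55% of all genes tested called higher and 1.44% lower (4.98% in either direction). The members' median was -0.01 beside 0.00 over all genes tested, and their log2 fold changes ran from -0.47 (ACP5) to 0.33 (CTSZ). CTSZ stood at 310.4, 337 and 355 CPM in EV and 432, 408 and 422 in TAZ-CAMTA1 (log2 fold change 0.33, SE 0.09, adjusted p = 0.0296). The groups did not overlap, but the call was lost in 5 of the 6 fits that left out 1 library.

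The libraries labelled TAZ4SA had 8 members higher than EV and 15 lower, beside 25.1% and 24.2% of all genes tested (49.2% in either direction), with a median of -0.11 beside -0.03, and 6 and 23 with total-count scaling, which moved the median of all genes by -0.198. CTSB had the largest rise (2046, 1943 and 1570 CPM, log2 fold change 0.97, SE 0.12, adjusted p = 2.76e-07), with IDS (0.66), GALC (0.61), DNASE2 (0.60), CTSH (0.54), CTSL (0.52) and GUSB (0.31), the last of which lost its call with total-count scaling. ACP2 (-0.92), SMPD1 (-0.89), CTSK (-0.64), ASAH1 (-0.60), CTSA (-0.59) and MANBA (-0.55) were lower. So were AGA (-0.50), ARSB (-0.46), SGSH (-0.45) and NAGLU (-0.32), by less, and the calls of CTSK and NAGLU were lost in 4 and 3 of the 6 fits that left out 1 library, among them those without the third EV library and without the third library labelled TAZ4SA. The summed epithelial markers were at 1888 to 2155 CPM, and their part was not tested. The comparisons of YAP5SA and of these libraries share the 3 EV libraries, so their values are given side by side and their likeness was not tested.

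Against the libraries labelled TAZ4SA, TAZ-CAMTA1 had 16 members higher and 8 lower, beside 26.9% and 26.8% of all genes tested (53.7% in either direction). The split was 24 and 6 with total-count scaling, which moved the median of all genes by 0.198. With TMM the members' median was 0.23, beside 0.03 over all genes tested. ACP2 (log2 fold change 0.82, SE 0.11, adjusted p = 7.97e-07), ASAH1 (0.73), SMPD1 (0.72) and SGSH (0.65) were higher, followed by MANBA (0.63), ARSB (0.60), CPVL (0.56), CTSA (0.55), NAGLU (0.45) and AGA (0.45). CTSB (-0.79), IDS (-0.78), DNASE2 (-0.61), TPP1 (-0.54), GUSB (-0.49) and GALC (-0.42) were lower, GALC only with TMM and not with total-count scaling. All 5 sulfatases passed the test in this comparison, 4 of them higher in TAZ-CAMTA1 and IDS lower.

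The 2 fusions differed in these genes. YAP-TFE3 against TAZ-CAMTA1 had 30 members higher and 0 lower, beside 22.8% and 19.9% of all genes tested (42.7% in either direction), with a median of 0.64 beside -0.01. The proteases had 11 members higher, the glycosidases 8, the sulfatases 2, the lipid enzymes and activators 6 and the other hydrolases 3. CTSS (6.64-fold, log2 fold change 2.73, SE 0.14, adjusted p = 4.83e-13), ACP5 (6.50-fold, 2.70), CPVL (4.24-fold, 2.08), NEU1 (3.59-fold, 1.84) and ASAH1 (3.45-fold, 1.79) were the largest. DNASE2 (1.34), NAGLU (1.01), PSAP (0.98), ARSB (0.77) and SGSH (0.57) were higher too.

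In sub-confluent cells, CAMTA1 was compared with EVsub and gave 2 members higher and 1 lower, beside 1.26% and 0.57% of all genes tested (1.83% in either direction), with a median of -0.14 beside -0.01. IDS, on the X chromosome at chrX:149476988-149521096, stood at 69.8, 59.5 and 69.4 CPM in EVsub and 145, 122 and 112 in CAMTA1 (1.91-fold, log2 fold change 0.93, SE 0.11, adjusted p = 3.20e-06). Every CAMTA1 library was above the libraries of all other groups. IDS overlaps another protein-coding gene model on the same strand. CTSZ was higher (0.35, adjusted p = 0.0421) and ACP5 lower (-0.75, adjusted p = 0.0207). The CTSZ call was lost in each of the 6 fits that left out 1 library, and the ACP5 call in 5 of them. The mean of the CAMTA1 group was the lowest of the 8 groups in 25 members (58.1%), beside 17.6% of all genes tested, over groups that also differ in density.

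Culture density went with the members too. EVsub against EV, which differ in density, had 3 members higher and 18 lower, beside 19.8% and 17.1% of all genes tested (36.8% in either direction), with a median of -0.21 beside -0.02. CTSO (log2 fold change -1.31, SE 0.34, adjusted p = 0.00389), GAA (-1.22), IDUA (-1.14), CTSF (-0.88), MAN2B1 (-0.88), ARSA (-0.70) and PSAP (-0.55) were lower in sub-confluent cells. Smaller falls were called for PLA2G15 (-0.54), SGSH (-0.53), DNASE2 (-0.53) and ACP2 (-0.45), and CTSK was at -0.80. The call of DNASE2 was lost without the third EV library, and that of PLA2G15 in 3 of the 6 fits that left out 1 library. CTSL was higher, at 127, 133 and 133 CPM in EV and 181, 177 and 177 in EVsub (log2 fold change 0.45, SE 0.06, adjusted p = 1.78e-05), and so were ASAH1 (0.39) and ACP5 (0.46), both of which lost the call with total-count scaling and in 3 and 5 of those 6 fits. The summed mesenchymal markers were at 4832 to 5730 CPM in EV and 2759 to 2955 in EVsub, the endothelial markers at 109 to 148 and 42.3 to 65.5, and the epithelial markers at 198 to 215 and 415 to 445, and their part in the members' values was not tested.

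Summed over the 43 members, levels were 5176 ± 504 CPM in EV, 5761 ± 687 in TFE3, 9779 ± 1293 in YAP-TFE3, 6123 ± 436 in YAP5SA, 5334 ± 217 in TAZ-CAMTA1, 6031 ± 327 in the libraries labelled TAZ4SA, 4621 ± 149 in EVsub and 4538 ± 55.6 in CAMTA1. The lowest YAP-TFE3 library (8578 CPM) was above the highest of all other groups (6388 CPM, in YAP5SA). The second TFE3 library, at 4971 CPM, lay within the EV range of 4688 to 5695 CPM. Proteases made up 48.8% of the sum in EV, 53.8% in YAP-TFE3 and 58.5% in YAP5SA, and sulfatases 5.11%, 3.54% and 3.7%. Without CTSB, left out after its values were seen, the YAP5SA sum was 4151 ± 161 CPM against 4230 ± 429.7 in EV, and the YAP-TFE3 sum 7657 ± 1079 CPM.

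**Figure D5:**
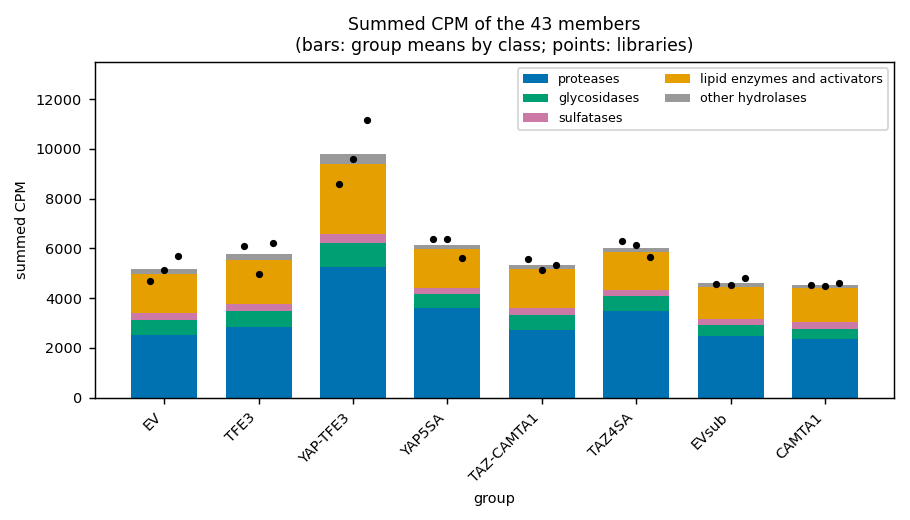
CPM summed over the 43 members (y axis) in the 8 groups (x axis), with stacked bars for the group means of the 5 classes and a point per library. YAP-TFE3 libraries lie between 8578 and 11148 CPM, and no other library exceeds 6388 CPM.

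Genes that act with the members were listed by function, outside the 43, and those named from these lists were chosen after their values were seen. A further list held 28 other enzymes that were tested, most but not all of them soluble lysosomal ones. Of these, 12 were higher and 4 lower in YAP-TFE3 against EV, beside 25.6% and 22.6% of all genes tested (median 0.21 on the log2 scale). The higher ones included CTSV, a cathepsin close to CTSL (1.64). HYAL3 (-1.05), NAAA (-0.47), PCYOX1 (-0.35) and ENGASE (-0.23), the last not a lysosomal enzyme, were lower.

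Of 19 genes for the targeting and maturation of hydrolases, 12 were higher and 1, GGA3 (-0.21), lower in the same comparison (median 0.40), beside 25.6% and 22.6% of all genes tested. Both mannose phosphate receptors rose, IGF2R from 239.8 ± 37.1 to 771 ± 39.6 CPM (log2 fold change 1.69, SE 0.11, adjusted p = 8.02e-12) and M6PR from 117 ± 5.29 to 234 ± 13.1 CPM (1.00), and so did the sorting receptors SORT1 (1.29) and SORL1 (1.39). SUMF1, the enzyme that activates sulfatases, had a log2 fold change of 0.17 and GNPTAB, which makes the mannose phosphate tag, of -0.18, neither called. Against EV, SORT1 was also higher in YAP5SA (0.83) and the libraries labelled TAZ4SA (0.66), and SORL1 in TAZ-CAMTA1 (0.74). Of the 19 genes, 5 were called higher and 3 lower in YAP5SA, 4 and 4 in the libraries labelled TAZ4SA, and 2 and 0 in TAZ-CAMTA1. The shares of all genes tested were 22.7% and 21.6%, 25.1% and 24.2%, and 3.55% and 1.44%. Also tested were 9 protease inhibitors, mainly cystatins but with SERPINB1, SERPINB6 and SPOCK1 among them. Of these 9, 5 were higher, 4 of them at least 2-fold, and 1, CST3, lower (-0.53), beside those same shares of all genes. The largest rise was that of CST2, with 0, 0 and 2 counts in EV and 176, 182 and 338 in YAP-TFE3.

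Among the MiT/TFE factors, MITF rose from 6.89 ± 1.08 to 10.9 ± 1.56 CPM in YAP-TFE3 (log2 fold change 0.66, SE 0.13, adjusted p = 1.85e-04). TFEB fell from 9.56, 9.56 and 10.9 CPM in EV to 4.19, 5.24 and 5.84 CPM in YAP-TFE3 (log2 fold change -0.97, SE 0.16, adjusted p = 1.65e-05). In YAP5SA against EV, MITF was higher and TFEB lower as well (log2 fold changes 0.71 and -0.51), both called. TFEB was also called lower in EVsub against EV (-0.92). In TAZ-CAMTA1, TFE3 and the libraries labelled TAZ4SA, each against EV, neither gene was called. TFEC did not pass the count minimum. In TFE3 and YAP-TFE3 the TFE3 count includes the construct, so the cells' own TFE3 RNA was not measured apart from it.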

How the data were processed

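RNA from 24 libraries of SW872 cells, 3 for each of 8 groups, was sequenced by the authors as poly(A)-selected, stranded, paired-end libraries. The deposited files hold raw read counts per Ensembl gene, made by the authors on hg38. The authors describe an alignment with Hisat2 and, beside it, Salmon abundances summed to genes with tximport, and which of these gave the deposited whole-number counts, with which strand setting, was not given in the sources used here. Counts per gene were fitted here for all 24 libraries in 1 model with 1 mean per group, with the quasi-likelihood test of edgeR 4.0.16 (limma 3.58.1, R 4.3.3), TMM (trimmed mean of M values) scaling and Benjamini-Hochberg adjustment over the 19997 of 60279 genes that averaged 5 or more counts. A gene was called at an adjusted p under 0.05. Sums and levels in CPM are descriptions and carry no p.

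The 43 members and all lists were chosen with earlier results of these data known. In each comparison and class, up to 2 called members per direction with the largest change are named with their values, and other members may be named. Values of some single genes of the related lists are not reported here. Gene positions and overlaps came from GENCODE 44, in which 56104 of the 60279 identifiers were found, and promoter windows came from RefSeq. The test was checked on simulated counts in which few genes changed, and only in YAP-TFE3. Far more genes were called in most comparisons here, and that setting was not simulated. Alternatives were DESeq2 1.42.0, its size factors, total-count scaling, no filter, at least 10 counts in at least 3 libraries, the replicate number as a block, the 2 groups alone, a fit without the libraries labelled TAZ4SA, and each library left out in turn. No comparison had all 3 correlations of same-numbered deviations over 0.1, and the main fit did not pair libraries by replicate number. This does not exclude an effect shared by same-numbered libraries. The summed endothelial markers were lowest in the third library of every group but CAMTA1. Replicates came from separate transductions of 1 cell line, so p-values measure the spread between those cultures. An exact permutation test of 3 against 3 libraries cannot go below 0.1.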

Additional observations from a re-analysis of the deposited data

How the results depend on the processing

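The rule of up to 2 called members per class and direction gave 110 single-member calls over the comparisons. None of these reversed direction under any alternative run. Of the 110, 90 held under every alternative and 99 under every one other than leaving out 1 library. Other calls named in the text are not part of this count. For TFE3 against EV, 1 member (ACP5) was called by DESeq2 and 1 without a filter on low counts, and 0 to 1 with a library left out (ACP5, without the second TFE3 library). For TAZ-CAMTA1 against EV, 2 were called without a filter (CTSZ higher, ACP5 lower), and 0 to 1 with a library left out. For CAMTA1 against EVsub, 5 were called without a filter, 8 with these groups fitted alone, and 1 to 2 with a library left out. The causes were not tested. Summed levels in CPM of the total count were 5451 in EV, 6114 in TFE3, 9702 in YAP-TFE3, 5623 in TAZ-CAMTA1, 5664 in YAP5SA and 5537 in those labelled TAZ4SA. With this scaling YAP5SA lay below TFE3 and the libraries labelled TAZ4SA below TAZ-CAMTA1, the reverse of the order with TMM. With the longest palindrome searched in place of CACGTG, 6.45% of matched members held the motif.

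With a library left out, members called ranged from 28 to 35 for YAP-TFE3 against EV, 26 to 29 against TFE3, 34 to 39 against YAP5SA and 28 to 32 against TAZ-CAMTA1. They ranged from 17 to 21 for YAP5SA against EV, 19 to 21 for the libraries labelled TAZ4SA against EV, 21 to 23 for TAZ-CAMTA1 against these, and 14 to 21 for EVsub against EV. The main fit did not use the replicate numbers. With the replicate block, members called were 31 for YAP-TFE3 against EV, 0 for TFE3 against EV, 29 for YAP-TFE3 against TFE3, 25 for YAP5SA against EV and 1 for TAZ-CAMTA1 against EV, and no count moved by over 1.5 times. The counts rest on 3 libraries a group. The lowest count of a member in a library was 23 (CTSO in YAP5SA), and whether depth limited the calls of the lowest members was not tested.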
